A study of Mus musculus with 3 samples.

Results

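The 10 genes described here act at the G1 to S decision of the cell cycle: the D-type cyclin genes Ccnd2 and Ccnd3, the cyclin-dependent kinase genes Cdk2, Cdk4 and Cdk6, the inhibitor genes Cdkn1a, Cdkn1b and Cdkn2d, and the pocket protein genes Rb1 and Rbl2. They were taken by symbol from a fixed list, and all 10 were found among the 50600 annotated genes of the tables. Total RNA-seq was made from primary cells of C57BL/6NJ mice that carry the label T-helper 1, a helper T cell subset known for interferon gamma. There was 1 group of 3 libraries, biological replicates 1, 2 and 3, from separate biosamples that share a donor identifier, with age and developmental stage given as unknown. The headers of the count tables name a time of 0 hours, and no treatment or second group enters any comparison here. Each value therefore compares genes within a library or the 3 libraries with each other, and p-values measure the spread between these libraries, which may be technical.

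In resting cells the pocket proteins bind E2F transcription factors and keep genes of DNA replication silent. D-type cyclins, induced by growth signals, activate CDK4 and CDK6, which begin to phosphorylate the pocket proteins, and cyclin E with CDK2 completes this step so that E2F factors are released. INK4 inhibitors bind CDK4 and CDK6, while CIP/KIP inhibitors bind cyclin-CDK complexes and restrain CDK2. In T lymphocytes p27, the product of Cdkn1b, is known for holding resting cells out of the cycle until antigen and cytokine signals lead to its removal.

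The libraries held 2510319 to 4305077 counts, of which the 10 genes held 3628, 4646 and 2283 in replicates 1, 2 and 3. T cell transcripts were present, with 1849, 2807 and 662 counts of Cd4 in replicates 1, 2 and 3, but the Th1 regulator Tbx21 and the cytokine Ifng each had 1, 3 and 0 counts and the chemokine receptor Cxcr3 had 0. The other 2 of the 5 Th1 markers were present, Il18r1 with 308, 412 and 54 counts and Il12rb2, which has exon overlap, with 93, 89 and 102, and the summed level of the 5 ranged from 25.5 to 57.4 TPM. Among markers of other cells, Igkc, Ms4a1, Klrb1c, Hbb-bs and Hba-a1 had 0 counts, whereas the summed level of the 6 B cell markers ranged from 123 to 400.5 TPM, mostly from Ighm and Cd79a, and that of the 4 myeloid markers from 73.7 to 110 TPM, mostly from Csf1r, whose exons overlap a gene of the other strand. The part of other cells in the levels below was not tested. In bulk RNA, fewer cells of a type and less RNA per cell cannot be told apart. Fragments were counted with strand setting 1, so if the library has the opposite orientation, a gene's counts stem wholly or in part from RNA of the opposite strand. The orientation was not tested, so the levels below are those of the counted strand. The mitochondrial light-strand gene mt-Nd6 had 20191, 20392 and 21040 counts, against 9015, 14727 and 2276 for the heavy-strand gene mt-Co1. Genes whose exons overlap exons of the other strand held 63.1%, 53.8% and 76.5% of the counts in replicates 1, 2 and 3. Of the 10 genes 7 have such an overlap, and it is given beside each of them.

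Of the 10 genes, 8 reached 1 TPM (a count divided by exon length and scaled to a fixed library sum) in all 3 libraries, as did 41.6% of protein-coding genes. Cdk4 and Rb1 were the highest, at 102 ± 18.7 and 93.9 ± 2.89 TPM (mean ± SD, n = 3). Cdkn1b, Ccnd2, Cdkn2d, Rbl2 and Ccnd3 followed between 48.0 and 18.7 TPM, Cdk2 stood at 8.57 ± 4.79 TPM and Cdk6 at 1.31 ± 0.819 TPM, and Cdkn1a had 3 counts in all. These levels depend on the library sum: taken over protein-coding genes without exon overlap, it raised them by 3.32 to 5.83 times, Cdk4 to 595.5 and Rb1 to 526.5 TPM, and left the order within each library as it was. Within libraries this order held well: in 44 of the 45 possible pairs the gene with the higher mean was higher in all 3 libraries. The exception was Cdk4 with Rb1, where replicate 1 had Rb1 higher and the mean log2 ratio was 0.11 ± 0.23. Some neighbours differed by little in 1 library, such as Rbl2 and Ccnd3 by 0.03 on the log2 scale in replicate 3 and Cdkn1b and Ccnd2 by 0.06 in replicate 1.

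**Figure D1:**
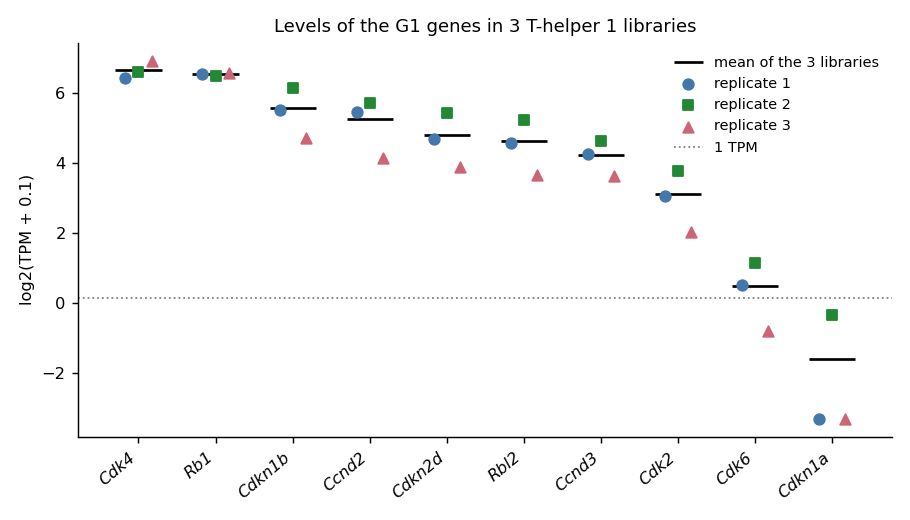
Levels of the 10 genes as log2(TPM + 0.1) in replicates 1, 2 and 3 (points), with the mean over the 3 libraries (bar) and 1 TPM as a dotted line, ordered by mean level. In TPM replicate 3 was the lowest library for 7 genes from Cdkn1b to Cdk6, but not for Cdk4 and Rb1, and Cdkn1a had counts in replicate 2 alone.

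Among the cyclins, Ccnd2 was above Ccnd3. Ccnd2 (chromosome 6, 127125162 to 127152193, minus strand) encodes cyclin D2, the D-type cyclin that lymphocytes induce early after mitogen signals. It had 782, 970 and 249 counts, or 44.2, 52.6 and 17.7 TPM in replicates 1, 2 and 3. Replicates 1 and 2 lay close together, and replicate 3 was lower by a factor of 2.97 in TPM against replicate 2, a gap that depends on the scale: the log2 difference was −0.41 on TMM-scaled CPM and 0.02 with TMM over genes without an opposite-strand gene within 5 kb. Ccnd3 (chromosome 17, 47505051 to 47599691, plus strand) encodes cyclin D3, which lymphoid progenitors need for expansion. Its levels were 19.0, 24.8 and 12.4 TPM, from 314, 426 and 163 counts. Ccnd2 was the higher of the 2 genes in each library, where the log2 ratio of Ccnd2 to Ccnd3 was 1.21, 1.08 and 0.51, a mean of 0.93 ± 0.38. Across libraries their levels overlapped: Ccnd2 in replicate 3 (17.7 TPM) was below Ccnd3 in replicates 1 and 2 (19.0 and 24.8 TPM). Both genes have exon overlap. Ccnd2 shares 372 exonic bases with Gm43126, an antisense feature of 429 bases with 1981, 1674 and 2308 counts, and 368 with 9330179D12Rik, which had 35, 20 and 8. Ccnd3 shares 361 bases with Bysl, a ribosome biogenesis gene with 2066, 1672 and 2073 counts.

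Of the kinases, Cdk4 had the highest level and Cdk6 the lowest. Cdk4 (chromosome 10, 127063534 to 127067920, plus strand), the main partner of D-type cyclins in many cells, had 527, 622 and 596 counts, or 86.2, 97.7 and 123 TPM. Replicate 3, the shallowest library, was the highest for this gene. Cdk6 (chromosome 5, 3341485 to 3531008, plus strand), the second D-cyclin kinase and one that is prominent in blood cells, had 35, 58 and 10 counts over 13989 exonic bases, or 1.33, 2.12 and 0.478 TPM. Cdk4 exceeded it in every library, by a ratio of counts per base of 72.9 (95% exact Clopper-Pearson interval 59.8 to 89.9, for counting error only). Cdk2 (chromosome 10, 128697939 to 128705031, minus strand), the partner of cyclins E and A, had 96, 165 and 37 counts and levels of 8.20, 13.5 and 3.98 TPM. It lay below Cdk4 by a mean log2 ratio of −3.71 ± 1.07, with −2.84 in replicate 2 and −4.91 in replicate 3, so the size of this gap depends on the library.

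All 3 kinase genes have exon overlap, which differs in extent. Cdk4 shares 641 bases (19.7% of its exons) with Tspan31, a tetraspanin gene with 64, 73 and 39 counts. Cdk2 shares 34 bases (0.547% of its exons) with Pmel, known as a melanosome gene, which had 5715, 6020 and 6431 counts here. Cdk6 shares 368 bases (2.63% of its exons) with the antisense feature Gm17590, which had 32, 30 and 53 counts. In replicate 3 the counts of Gm17590 exceeded those of Cdk6, while the reverse held in replicate 2.

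Promoter sequence was examined for the members in the RefSeq table (GRCm38.p6), which held 8 of the 10 genes with 10 start sites (not Ccnd2 and Rb1). The 250 bases before each start were searched on both strands for 7 motifs chosen after the levels were known: CACGTG (E-box, bound by MYC family factors), the E2F forms TTTCCCGC, TTTCGCGC, TTTGCCGC and TTTGGCGC, the forkhead core TGTTTAC known from FOXO factors, the CCAAT box, which is the NF-Y site and is spelled by its name, the GC box GGGCGG known from SP factors, the TATA box with the letters TATAAA, and the p53 response element with at most 1 mismatch in 20 bases. Motifs were searched independently of each other, and overlapping matches were counted separately. The windows of Cdk4, the highest kinase gene, and of Cdk2 are printed because they differ in these motifs, with E-boxes in capitals for Cdk4 (chr10:127063285-127063534, plus strand) and the E2F match, on the reverse strand of the gene, for Cdk2 (chr10:128705052-128705301, minus strand).
Cdk4: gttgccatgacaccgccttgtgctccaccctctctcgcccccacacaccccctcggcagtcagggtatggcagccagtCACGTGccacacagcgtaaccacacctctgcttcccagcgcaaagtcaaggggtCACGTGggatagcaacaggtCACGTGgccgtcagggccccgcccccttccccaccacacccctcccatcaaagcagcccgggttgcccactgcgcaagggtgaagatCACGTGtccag
Cdk2: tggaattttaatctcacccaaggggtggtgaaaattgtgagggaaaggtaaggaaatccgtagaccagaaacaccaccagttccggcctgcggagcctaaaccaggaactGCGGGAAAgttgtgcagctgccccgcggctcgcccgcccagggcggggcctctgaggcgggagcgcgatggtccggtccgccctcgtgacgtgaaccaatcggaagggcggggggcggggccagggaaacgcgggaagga
The Cdk4 window held 4 E-boxes, and 4 or more were found in 0.0213% of 32817 promoters, while 6.02% held at least 1. The Cdk2 window held 1 E2F match, found in 1.86% of promoters, with 1 CCAAT and 5 GC boxes. Cdk6 had 1 E-box and 1 TATAAA, and among the members no other window held an E-box or an E2F match. A match describes these letters and is no evidence of binding.

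The inhibitors spanned the widest range. Cdkn1b (chromosome 6, 134920401 to 134925513, plus strand), which encodes p27, had 395, 639 and 179 counts, or 46.1, 71.7 and 26.3 TPM. Its exons overlap none of the other strand, and the nearest gene there, the long noncoding RNA gene Gm44238, had 38, 30 and 42 counts. Cdkn2d (chromosome 9, 21288410 to 21291407, minus strand), which encodes the INK4 protein p19, had 77, 133 and 35 counts and 25.99, 43.1 and 14.9 TPM, with no opposite-strand gene within 5 kb. The 2 inhibitors kept nearly the same ratio in every library, with log2 values of −0.82, −0.73 and −0.82 for Cdkn2d over Cdkn1b (mean −0.79 ± 0.05). This was the smallest spread of the 8 pairs compared. Neither gene has exon overlap, but the other pair without it, Cdkn1a over Cdkn1b, had an SD of 1.19, with few counts of Cdkn1a. Cdkn1a (chromosome 17, 29090979 to 29100722, plus strand), which encodes p21, the CIP/KIP inhibitor induced by p53, had 0, 3 and 0 counts. In replicates 1 and 3 a count of 0 allows up to 3 counts, which would be 0.717 and 0.903 TPM. With counts summed over the 3 libraries, Cdkn1b exceeded Cdkn1a by a ratio of counts per base of 198 on the counted strand. The 95% exact Clopper-Pearson interval of 67.4 to 959 is for counting error only.

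The windows before the Cdkn1b start (chr6:134920151-134920400, plus strand) and the upstream Cdkn1a start (chr17:29090729-29090978, plus strand) are printed because the levels of the 2 CIP/KIP genes lay farthest apart, with CCAAT in capitals for Cdkn1b and the p53 element in capitals for Cdkn1a.
Cdkn1b: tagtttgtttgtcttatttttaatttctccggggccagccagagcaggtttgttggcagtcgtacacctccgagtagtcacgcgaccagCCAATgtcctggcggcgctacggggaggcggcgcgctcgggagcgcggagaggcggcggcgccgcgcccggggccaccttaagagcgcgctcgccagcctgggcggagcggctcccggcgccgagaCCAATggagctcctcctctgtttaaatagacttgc
Cdkn1a: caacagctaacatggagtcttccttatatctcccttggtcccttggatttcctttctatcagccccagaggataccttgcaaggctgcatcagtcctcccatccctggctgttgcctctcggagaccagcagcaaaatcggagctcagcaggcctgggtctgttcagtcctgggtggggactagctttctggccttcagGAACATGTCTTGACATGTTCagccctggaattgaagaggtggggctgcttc
Cdkn1b held 2 CCAAT matches, a motif found in 33.8% of promoters, and no p53 element. The upstream Cdkn1a window held 1 p53 element, found in 0.0579% of promoters, and the second Cdkn1a window held none. Trp53, the gene of p53 itself, stood at 34.2 ± 19.4 TPM, with 229, 439 and 104 counts. Cdkn2d had 1 CCAAT and 3 GC boxes, and the Rbl2 window had none of the 7 motifs.

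Of the pocket protein genes, Rb1 was above Rbl2 in each library. Rb1 (chromosome 14, 73183673 to 73325822, minus strand), the retinoblastoma gene, had 1061, 1074 and 871 counts, and its levels of 93.7, 91.1 and 96.9 TPM were the most even of the 10 genes on this scale, though not on TMM-scaled CPM, where replicate 3 was highest (275, 197 and 466). Rbl2 (chromosome 8, 91070057 to 91123844, plus strand), which encodes p130, the pocket protein typical of quiescent cells, had 341, 556 and 143 counts, or 24.0, 37.6 and 12.7 TPM. The log2 ratio of Rb1 to Rbl2 was 1.96, 1.28 and 2.93 (mean 2.05 ± 0.83), lowest in replicate 2 and highest in replicate 3. Rb1 shares 488 exonic bases with Rcbtb2 (375, 460 and 420 counts) and 408 with Lpar6, which lies within the span of Rb1 and had 119, 115 and 25. Rbl2 shares 693 bases with Aktip (721, 732 and 737 counts) and 892 with Gm45464 (1106, 1147 and 1194).

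**Figure D2:**
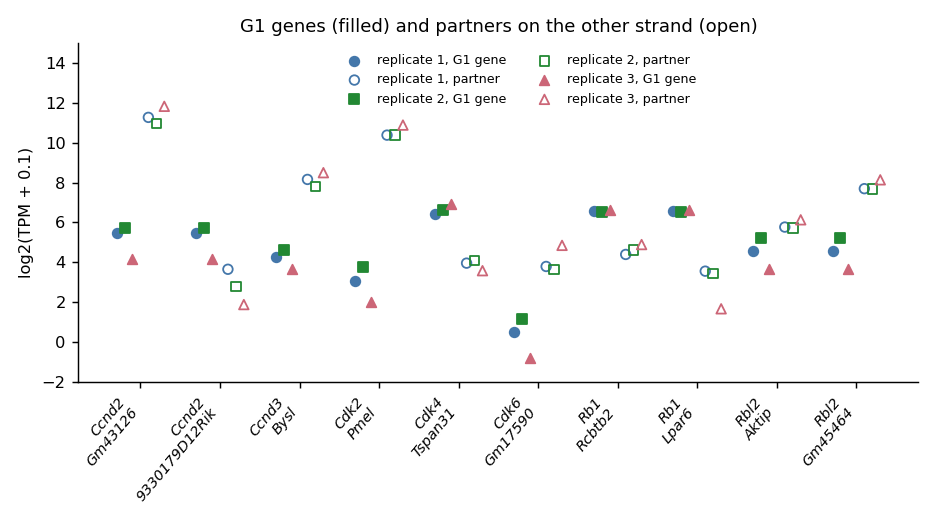
Levels as log2(TPM + 0.1) of the 7 genes with exon overlap (filled) and of their 10 partners on the other strand (open) in replicates 1, 2 and 3. Gm43126, Bysl, Pmel, Gm17590, Aktip and Gm45464 were above the G1 gene in all 3 libraries and highest in replicate 3 in TPM. Ccnd2, Ccnd3, Cdk2, Cdk6 and Rbl2 were lowest there on the same scale. The other partners, 9330179D12Rik, Tspan31, Rcbtb2 and Lpar6, were below the G1 gene in all 3 libraries. Of these, Rcbtb2 was highest in replicate 3 and the others were lowest there.

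Across the 10 partners, 6 had more counts in replicate 3 than in replicate 2, although replicate 3 was the shallower library. All 10 have exon overlap, and over tested genes of that class the median log2 count ratio of replicate 3 to replicate 2 was −0.52. Over all tested genes it was −1.64. The share of all genes with more counts in replicate 3 is not given here. The counts of 8 of the 9 tested G1 genes ranked in the order replicate 2, replicate 1, replicate 3, as did 72.3% of the 10662 tested genes, and the exception was Cdk4. Cd4 had this order too.

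The 3 libraries were then compared for each gene, to ask which levels differed by more than counting error. Counts were scaled by effective library sizes (TMM) and tested by a Poisson chi-square test with Benjamini-Hochberg adjustment over all 10662 genes kept by the expression filter of edgeR. Of the 9 members tested, 5 varied beyond counting error (55.6%), against 62.4% of all tested genes, so the share lay near the background. Cdkn1a had too few counts to be tested. Cdk4 and Rb1 were highest in replicate 3 (32.0% of all tested genes passed with this direction), and Ccnd2, Cdkn1b and Rbl2 were lowest there (27.3%). For Ccnd3, Cdk2, Cdk6 and Cdkn2d the test did not pass, with adjusted p between 0.0644 and 0.535.

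Cdk4 stood at 136.5, 114 and 319 depth-scaled counts (CPM) in replicates 1, 2 and 3, a log2(CPM + 0.5) difference of 1.48 between replicates 3 and 2 (adjusted p = 4.42e-84, Poisson chi-square test). Rb1 stood at 275, 197 and 466 CPM, a difference of 1.24 (adjusted p = 2.39e-81, same test). For both, replicate 3 lay well above the other libraries, which differed from each other by 0.26 and 0.48. Ccnd2 had 202.5, 178 and 133 CPM, a difference of −0.41 (adjusted p = 1.51e-07). Cdkn1b had 102, 117 and 95.7 CPM and Rbl2 88.3, 102 and 76.5 CPM, with differences of −0.29 (adjusted p = 0.0335) and −0.41 (adjusted p = 0.00815). The variation among all genes was large: with negative binomial variance at the common dispersion of edgeR (0.14), none of the 9 members passed (1 at an unadjusted p under 0.05), against 4.3% of tested genes.

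The calls of Ccnd2, Cdk4 and Rb1 held under each scaling and without each library. The number of members called was 3 with DESeq2 size factors, without replicate 2 and without replicate 3, 4 without replicate 1, and 9 with raw totals. The share of all tested genes called under these settings is not given here, so these numbers have no background beside them. Cdk4 and Rb1 were higher in replicate 3 than in replicate 2 under all 4 scalings, with log2 differences from 0.72 to 1.91 and from 0.48 to 1.67. Cdk2 and Cdk6 were lower under all 4. Ccnd2, Cdkn1b, Cdkn2d and Rbl2 were lower in 3 scalings and, with TMM computed over genes without an opposite-strand gene within 5 kb, higher by 0.02 to 0.14, while Ccnd3 was higher in 3 and lower with raw totals (−0.60). The scaling moved all genes: the median difference over tested genes was −0.11 with TMM, −0.01 with DESeq2, −0.85 with raw totals and 0.32 with the restricted TMM.

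**Figure D3:**
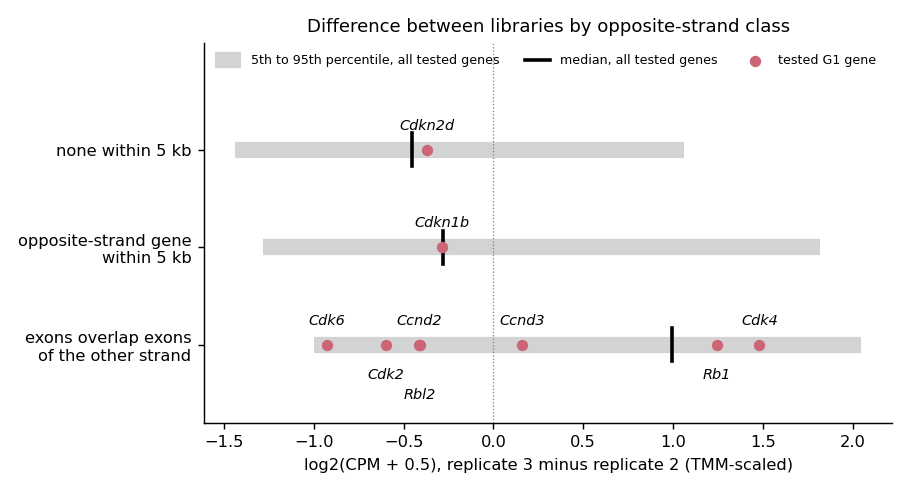
Difference in log2(CPM + 0.5) between replicate 3 and replicate 2 (horizontal axis, TMM-scaled) for the 9 tested G1 genes (points) by opposite-strand class, with the 5th to 95th percentile (grey) and median (black) of all tested genes in the class. Cdk4 and Rb1 lie above the median of 0.995 of their class, the other 5 genes with exon overlap lie below it, and Cdkn1b and Cdkn2d lie near the medians of theirs.

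Exon overlap moved with these differences over all genes. The median difference between replicates 3 and 2 was 0.995 over 4418 tested genes with exon overlap, −0.28 over 3644 genes with an opposite-strand gene within 5 kb and −0.45 over 2600 genes with none. Cdkn1b (−0.29) and Cdkn2d (−0.37) lay near the medians of their classes. Cdk4 and Rb1 shared the direction of genes with exon overlap, of which 57.5% passed with replicate 3 highest, and their partners Tspan31, Rcbtb2 and Lpar6 differed by 0.62, 1.41 and −0.64. In contrast Ccnd2, Rbl2, Cdk2 and Cdk6 have exon overlap and lay between −0.41 and −0.93, while their partners Gm43126, Aktip, Gm45464, Pmel and Gm17590 lay between 1.55 and 2.27 and 9330179D12Rik at 0.20. Ccnd3, which also has exon overlap, lay between these groups at 0.16, with its partner Bysl at 1.855. The part of opposite-strand fragments in the counts of Cdk4 and Rb1 was not tested.

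The 8 pairs of genes were compared within each library, where the scale of the library cancels. In all 8 the same gene was higher in all 3 libraries, with 3 or more counts of that gene in each. An exact two-sided sign-flip test over 3 libraries cannot go below p = 0.25, which every pair reached (adjusted p = 0.25), so these ratios are descriptions. Cdkn1b was above Ccnd3 by log2 ratios of 1.27, 1.53 and 1.08 (mean 1.29 ± 0.23). It was above Cdk2, the kinase that p27 restrains, by 2.48, 2.40 and 2.69 (mean 2.52 ± 0.16). Pairs that held Cdk4 or Rb1 had the widest spread beside the pair with Cdkn1a, with SDs of 1.20 for Cdk4 over Cdk6, 1.07 for Cdk2 over Cdk4 and 0.83 for Rb1 over Rbl2, against 0.05 to 0.38 for the 4 pairs without Cdk4, Rb1 or Cdkn1a.

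**Figure D4:**
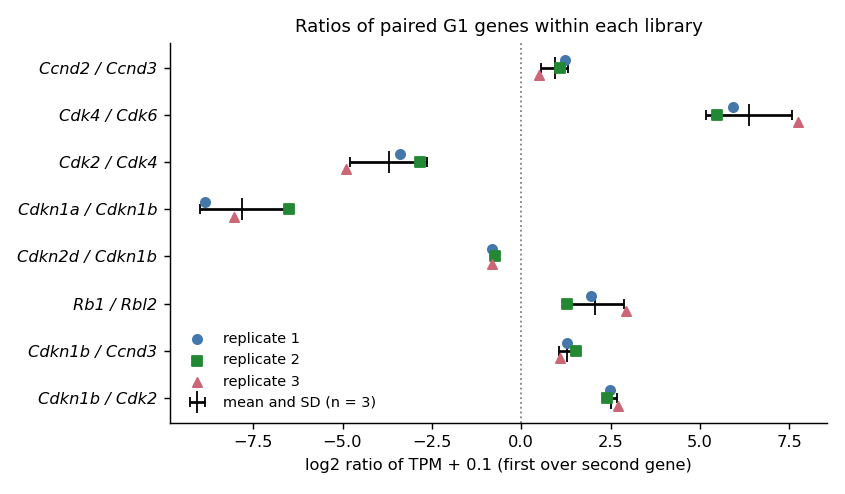
Log2 ratio of TPM + 0.1 of the first over the second gene of 8 pairs in replicates 1, 2 and 3 (points), with mean and SD over the 3 libraries (bars). No pair crosses 0, and the 3 libraries of Cdkn2d over Cdkn1b nearly coincide at −0.79 ± 0.05.

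Other genes of the pathway were taken from 7 lists with 44 genes. In all, 28 reached 1 TPM in all 3 libraries, 17 of them among the 29 without exon overlap. The variation test was passed by 15 of 28 tested genes (background 62.4%), 8 with replicate 3 highest and 7 with it lowest. The median mean level was 4.91 TPM, against 26.4 TPM over the 10 G1 genes.

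Among the other cyclins, 4 of 5 reached 1 TPM in all libraries. Ccne2 and Ccne1, the cyclin E genes that activate CDK2, stood at 56.8 ± 21.9 and 33.3 ± 8.62 TPM, and Ccna2, the S and G2 phase cyclin, at 50.1 ± 11.3 TPM. Ccnd1, a D-type cyclin that is low in most lymphocytes, had 63, 85 and 65 counts (8.52 ± 1.22 TPM), below Ccnd2 and Ccnd3 in each library, and Ccna1 had 0 counts. All 4 tested cyclins passed the test with replicate 3 highest, a direction that held under all 4 scalings, with log2 differences from replicate 2 of 1.13 to 2.20 on TMM-scaled CPM. The share of all genes called with this direction was 32.0%, and that of genes with exon overlap, which 3 of the 4 have, was 57.5%. With negative binomial variance Ccne2 passed and the other 3 did not. Ccne1 had 156, 135 and 170 counts without an annotated opposite-strand gene within 5 kb. Ccne2 shares 609 exonic bases with Ints8, which had 112, 163 and 31 counts in replicates 1, 2 and 3. Ccna2 shares 510 with Exosc9 (64, 89 and 39 counts) and Ccnd1 1100 with LTO1 (55, 78 and 23). The part of opposite-strand fragments in the counts of these cyclins was not tested. The cycling markers Mki67 and Top2a stood at 5.56 ± 1.25 and 1.25 ± 0.448 TPM.

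The other CDK inhibitor genes were near the floor. Cdkn2a and Cdkn2b, which encode p16, ARF and p15, had 0 counts in all libraries, where 3 counts in replicate 1 would be 1.36 and 1.14 TPM. Cdkn2c had 2, 10 and 2 counts and Cdkn1c 0, 2 and 7, with 625 exonic bases of Cdkn1c shared with Gm44732. Cdkn1b and Cdkn2d were thus the 2 of the 7 inhibitor genes examined that reached 1 TPM in every library.

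Of the 11 other pocket protein, E2F and DP genes, 6 reached 1 TPM in all libraries. Rbl1, which encodes p107, stood at 10.3 ± 5.22 TPM with 109, 185 and 48 counts, below Rbl2 in each library. E2f5 and E2f4, the E2F factors that partner p130 in repression, led the list at 36.2 ± 8.66 and 33.5 ± 18.5 TPM, and E2f7 had 0 counts. E2f4 and Tfdp1 passed the test with replicate 3 lowest, and E2f5, which shares 26 bases with 1810022K09Rik, with it highest. In the list of CDK activating kinase, CDK1 and tyrosine 15 control, Ccnh, the cyclin of the CDK-activating kinase, stood at 107 ± 27.98 TPM and Pkmyt1, which inhibits CDK1, at 21.5 ± 5.93 TPM, both with exon overlap.

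Of the 5 MuvB core genes, which form the DREAM complex with p130 and E2F4, 3 reached 1 TPM in all libraries, while Mybl2, the B-Myb gene listed with them, did not. Lin37 and Rbbp4 were highest at 20.2 ± 9.09 and 18.2 ± 10.4 TPM, both with exon overlap. Lin37 shares 3 bases with Hspb6. Rbbp4, with 326, 476 and 93 counts, shares 782 bases with Sync (137, 143 and 122 counts) and 796 with Gm26722 (1714, 1327 and 1466). Among the 7 genes of cyclin and p27 turnover, Cul1, the scaffold of SCF ubiquitin ligases, stood at 27.96 ± 10.3 TPM. Its exons share 192 bases with A930035D04Rik on the other strand. Ambra1, a D-type cyclin ligase receptor, stood at 14.8 ± 8.78 TPM, and 6 of the 7 genes reached 1 TPM throughout. The 4 upstream factors all did so. Foxo1, a forkhead factor of resting T cells, stood at 38.0 ± 24.98 TPM with exon overlap, and Myc, a growth regulator, at 27.8 ± 11.8 TPM. Foxo1 and Trp53 passed the test with replicate 3 lowest on TMM-scaled CPM.

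**Figure D5:**
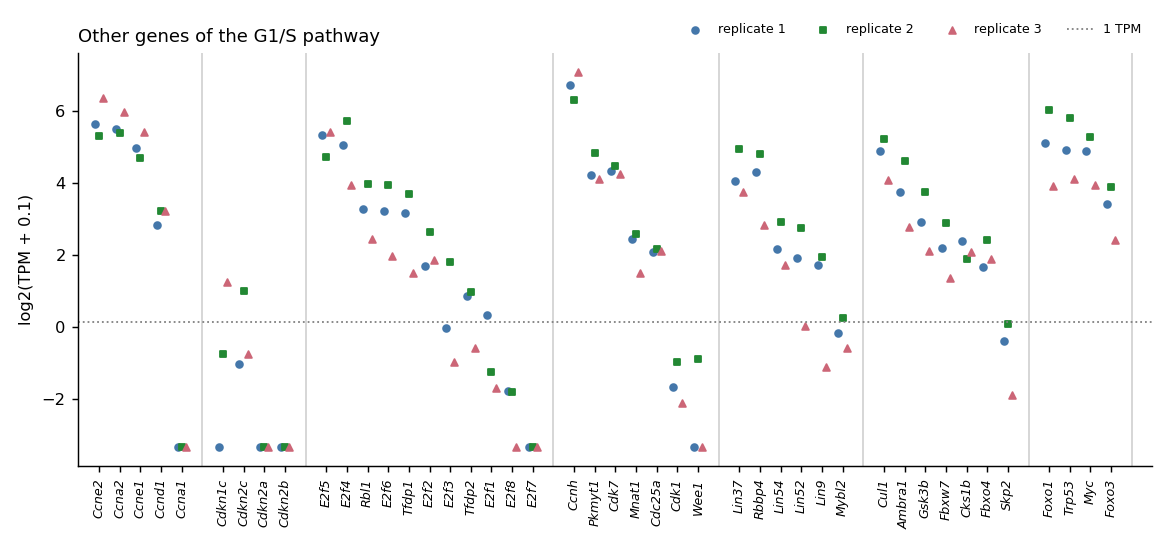
Levels of the 44 other pathway genes as log2(TPM + 0.1) in replicates 1, 2 and 3, from left to right in the groups cyclins, inhibitors, pocket protein and E2F genes, CDK1 and its activating and inhibiting factors, MuvB core genes with Mybl2, turnover genes and upstream factors, with 1 TPM as a dotted line. In TPM replicate 3 is highest for Ccne2, Ccna2 and Ccne1, and Cdkn2a and Cdkn2b have 0 counts.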

How the data were processed

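Total RNA was sequenced from 3 libraries of 1 group. The authors deposited raw counts of fragments per gene made with featureCounts 1.4.6-p4 from paired fragments with both ends mapped, at strand setting 1, on GENCODE M13 exons, per the file headers, with assembly mm10, per the labels. Neither the aligner's version nor trimming nor the kit is given in the sources used here. Fragments that map to several genes or overlap on 1 strand may be undercounted.

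TPM were computed from these counts and the exon length. Gene names came from GENCODE M21 by identifier (50376 of 50600 named), and exon overlap came from the tables' coordinates with bedtools 2.31.1. Scaling used edgeR 4.0.16 (TMM, filterByExpr) and DESeq2 1.42.0. The variation test was a Poisson chi-square test with 2 degrees of freedom, adjusted over 10662 genes at 0.05. Pairs used log2(TPM + 0.1) and an exact sign-flip test. Library totals were 3647366, 4305077 and 2510319 counts, and intervals and floors cover counting error only. The genes named are the 10 members and their overlap partners, the 2 highest genes and those with 0 counts of each list, and Ccnd1, Ccne1, Ccne2, Cdkn2a, Rbl1 and Myc. Tfdp1, Mybl2 and the overlap partners of pathway genes were named after their values were seen. The members and lists were chosen with earlier results of these data known. A planned comparison of protein sequences was not run, and the promoter motifs and the summaries by exon overlap were added after the data were seen. Alternatives were other scalings, filters, pseudocounts, variance and leaving out each library.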

Additional observations from a re-analysis of the deposited data

How the results depend on the processing

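The number of members varying between libraries was 5, and it was 3 with DESeq2 size factors, 9 with raw total counts, 0 with negative binomial variance and 3 to 4 when each library was left out in turn. It was 5 without a filter on low counts and 4 with TMM over genes without an opposite-strand gene within 5 kb. With that TMM the set changed: Cdkn1b and Rbl2 were no longer called, and Ccnd3 was (adjusted p = 0.000117, Poisson chi-square test). With 1 group, every such call compares libraries. The share of all tested genes called was 62.4% in the main test and 4.3% with negative binomial variance. It is not given for the other settings. Members at 1 TPM in every library numbered 8 to 9 over the alternatives in TPM. Cdk6 was added without replicate 3 and on TPM over protein-coding genes without exon overlap. On TMM-scaled CPM the cutoff was 1 CPM, a value not divided by exon length, and 9 members including Cdk6 reached it. All 8 pairs kept 1 direction on TMM-scaled CPM. They also kept it under each pseudocount and without each library, and the 2 pairs without exon overlap kept it too. These latter alternatives could not change a sign that was the same in all 3 libraries. Pathway genes at 1 TPM numbered 28, with 28 to 31 at other thresholds or without a library, and 17 over the 29 without exon overlap. Of the single levels, 40 of 50 alternatives moved by less than 1 SD. The 10 others came from the smaller denominator of protein-coding genes without exon overlap, which raised the levels by 3.32 to 5.83 times. For the pair ratios 41 of 48 moved by less than 1 SD, and none changed sign. Leaving out 1 of 3 libraries cannot move a mean by 1 SD of those libraries. For levels and ratios alike, the alternatives that left out a library therefore had a fixed outcome. No paired analysis was possible because the series holds 1 group. Depth limits Cdkn1a, Cdkn2a and Cdkn2b, whose absence from the cells is not shown by 0 counts.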
